A study of Mus musculus with 12 samples.

Results

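The kinase gene *Cdk5*, the genes of its activators *Cdk5r1* and *Cdk5r2*, the genes of its adaptors *Cables1* and *Cables2* and the calpain genes *Capn1* and *Capn2* were examined for acetylation of histone H4 at lysine 12 (H4K12ac) in hippocampal neurons of mice with and without a conditional deletion of *Tip60*. These 7 genes were taken as a list by name, out of 55413 genes on the chromosomes of the GRCm38 annotation. No measured value was used as a criterion, but the list was chosen with earlier results of these data known. Neuronal nuclei were sorted by FACS from whole hippocampi of 5 *Tip60* cKO and 5 control mice and used for H4K12ac ChIP-Seq. In *Tip60* cKO mice both *Tip60* alleles were floxed and the CaMKCreERT2 driver was present, whose promoter acts in excitatory neurons of the forebrain. Controls had the same floxed alleles and no driver, and both groups received tamoxifen. Nuclei were taken 10 days after the last injection, and the labels give male C57BL/6J mice with an age of 3 months for both groups, whereas the methods of the study name C57BL/6N mice of either sex. The sort was for neuronal nuclei and not for cells in which the driver acts, so how many of the *Tip60* cKO nuclei carried the deletion is not known from these data.

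CDK5 is a cyclin-dependent kinase that works mainly in neurons that no longer divide, where it acts on cytoskeletal, synaptic and nuclear proteins. It has no activity alone and needs a non-cyclin partner, the protein p35 encoded by *Cdk5r1* or the related p39 encoded by *Cdk5r2*. CABLES1 and CABLES2 are adaptors of cyclin-dependent kinases, and CABLES1 links CDK5 to the tyrosine kinase ABL1. Calpains are proteases that calcium activates. *Capn1* and *Capn2* encode the large subunits of the 2 widely expressed forms, and cleavage of p35 by calpain leaves the longer-lived fragment p25, which has been linked to neurodegeneration. H4K12ac is found around the transcription start sites (TSSs) of active genes, and TIP60, the product of *Kat5*, is one of the enzymes that place it.

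The positions are those of GENCODE on GRCm38 (mm10, the build of the lists). *Cdk5* (ENSMUSG00000028969.10) lies on chromosome 5 at 24418241 to 24423530 on the minus strand. *Cdk5r1* (ENSMUSG00000048895.13) lies on chromosome 11 at 80477023 to 80481184 on the plus strand, and *Cdk5r2* (ENSMUSG00000090071.4) on chromosome 1 at 74854934 to 74857732 on the plus strand. *Cables1* (ENSMUSG00000040957.15) is the longest of the genes with 106 kb, on chromosome 18 at 11839220 to 11945630 on the plus strand, and *Cables2* (ENSMUSG00000038990.14) lies on chromosome 2 at 180258540 to 180273496 on the minus strand. *Capn1* (ENSMUSG00000024942.17) lies on chromosome 19 at 5988545 to 6015897 and *Capn2* (ENSMUSG00000026509.15) on chromosome 1 at 182467260 to 182517608, both on the minus strand. Most of the starts stood alone. Within 2 kb of the *Cdk5* TSS, however, the gene *Slc4a2* starts at −307 bp on the other strand, and 2 non-coding genes start inside the window of *Cables1*.

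Libraries had 22864189 to 37923809 tags at the peak calling step, and the lists held 64245 to 136409 peaks. *Tip60* cKO mouse 5 had the fewest tags and the shortest list. Lists of *Tip60* cKO mice covered 43.8 ± 14.0 Mb and those of controls 56.4 ± 10.7 Mb of the genome (SD, n = 5). Lane 7 of the sequencer held replicates 1 to 3 of each genotype, and lane 8 held replicates 4 and 5. All 5 neuronal and 4 excitatory markers examined had a TSS peak in all 10 lists, and none of 4 microglial markers had one in any list. Of 5 inhibitory markers *Gad1* and *Sst* had none, and *Gad2*, *Slc32a1* and *Pvalb* had one in 1, 2 and 3 lists. Of 5 oligodendrocyte markers *Mbp* had one in all 10 lists, *Sox10* in 4 and the other 3 in none, and each of 3 endothelial markers had one in 1 list at most. Of 4 astrocyte markers only *Gfap* had peaks in most lists, and peaks covered 4.60 ± 3.36% of its TSS window in *Tip60* cKO and 19.6 ± 4.87% in controls (SD, n = 5, limma adjusted p 0.0287, and 0.134 after scaling to the mean of the library). The neuronal marker *Syt1* was also lower in coverage, with 29.2 ± 7.07 against 51.4 ± 7.80% (limma adjusted p 0.0315, and 0.0318 after scaling). It was the only call in coverage among the 9 neuronal and excitatory markers. Of these 8 were lower, and *Camk2a* was higher by 9.87 percentage points (limma adjusted p 0.637). After scaling 4 of the 9 were higher, *Camk2a* by 27.9 (limma adjusted p 0.0901). Over all 21672 TSSs tested, 81.1% were lower in unscaled coverage and 1.53% were called lower. With the replicate number as a block limma called no TSS for unscaled coverage. The part of other cell types in the results was not tested. The TSS of *Kat5* had a peak in all 10 lists, with rank scores of 86.0 to 98.6 in *Tip60* cKO and 94.0 to 99.4 in controls. Where this peak lies against the deleted segment was not examined, so it is no check of the deletion.

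RefSeq promoters of GRCm38.p6 were at hand for 4 of the 7 genes, 300 bases each with 250 before and 50 after the RefSeq start, with a second start for *Capn1*. The bases of the first promoter that precede the GENCODE TSS are shown for these genes because the peaks described below adjoin or cover them. They read 5′ to 3′ on the strand of the gene, and capitals mark every match on either strand to the GC box, which was searched as GGGCGG, to the CCAAT box, which reads ATTGG on the other strand, and to the core of the cyclic AMP response element, searched as TGACG.
*Cdk5r2*: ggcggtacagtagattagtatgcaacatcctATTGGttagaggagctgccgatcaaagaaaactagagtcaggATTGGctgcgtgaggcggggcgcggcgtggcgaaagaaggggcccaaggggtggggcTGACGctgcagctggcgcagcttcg
*Cables2*: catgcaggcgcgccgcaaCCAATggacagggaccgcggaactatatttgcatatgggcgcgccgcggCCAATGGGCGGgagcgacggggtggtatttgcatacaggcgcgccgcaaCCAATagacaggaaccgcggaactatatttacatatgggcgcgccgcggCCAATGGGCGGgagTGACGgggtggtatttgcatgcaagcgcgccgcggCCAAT
*Capn1*: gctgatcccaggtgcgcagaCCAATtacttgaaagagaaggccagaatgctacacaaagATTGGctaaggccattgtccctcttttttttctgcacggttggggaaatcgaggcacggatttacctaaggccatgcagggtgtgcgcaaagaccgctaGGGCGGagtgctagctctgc
*Capn2*: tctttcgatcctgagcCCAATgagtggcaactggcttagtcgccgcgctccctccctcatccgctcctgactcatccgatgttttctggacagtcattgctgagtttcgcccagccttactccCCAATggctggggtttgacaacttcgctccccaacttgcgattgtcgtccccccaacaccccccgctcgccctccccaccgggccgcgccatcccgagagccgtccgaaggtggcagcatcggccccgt
The stretches lie at chr1:74854779-74854933 on the plus strand (*Cdk5r2*), chr2:180273497-180273715 on the minus strand (*Cables2*), chr19:6015898-6016075 on the minus strand (*Capn1*) and chr1:182517609-182517860 on the minus strand (*Capn2*). The *Cables2* stretch repeats: CCAAT occurs 5 times, starting at −201, −152, −103, −54 and −5 bp from the TSS, and GGGCGG directly follows it at 2 of these places. *Cdk5r2*, *Capn1* and *Capn2* each hold 2 CCAAT matches. Over all 32851 promoters of the table, 37.4% hold CCAAT, 35.7% GGGCGG and 20.8% TGACG on either strand. The TATA box TATAAA, held by 13.6% of all promoters, was not found in the promoters of the 4 genes, and neither were the E box CACGTG (7.15%) and the ETS motif CCGGAAG (8.86%). The promoters were rich in CpG, with 33 CpG dinucleotides in *Cdk5r2*, 43 in *Cables2*, 15 in *Capn1* and 27 in *Capn2*, against a median of 7 over all promoters. Peaks lay over the whole first promoter of *Capn1* in all 10 lists, but over only 1.93 ± 4.32% of that of *Cables2* in *Tip60* cKO and 7.67 ± 7.04% in controls (SD, n = 5), since the *Cables2* peak begins after the start. These matches describe the letters only.

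All 7 genes had an H4K12ac peak within 2 kb of the TSS in all 10 lists, as did 13004 of the 55413 annotated genes. Peak height was read by the rank score of the TSS, for which the windows of all genes in a library were ranked in percent by the fold enrichment over input of their strongest peak, a window without a peak scoring 0. Scores of the 7 genes lay between 75.6 and 99.9 in single mice. A peak was present in a mean of 32.2% of all windows in *Tip60* cKO and 33.9% in control lists (n = 5). Windows with a peak rank above all others, so even a weak peak gives a high score. In control mice *Capn1* stood highest with 99.1 ± 0.620 (SD, n = 5), above *Cdk5r2* with 95.4 ± 2.71 in 5 of 5 mice. *Cdk5r1* (89.3 ± 6.78), *Cables2* (87.6 ± 3.20), *Cables1* (87.6 ± 6.76), *Cdk5* (85.1 ± 4.74) and *Capn2* (84.4 ± 5.18) followed, and neighbours in this order changed places between mice. In *Tip60* cKO mice *Cdk5r2* stood first with 94.2 ± 3.19 and *Capn1* second with 93.0 ± 8.78, and *Capn1* was below *Cdk5r2* in only 1 of 5 mice.

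The question of the comparison is whether acetylation at these genes differed once TIP60 was deleted. The mean rank score was lower in *Tip60* cKO for 3 and higher for 4 of the 7 genes, with a median difference of 0.773, against −0.691 over the 21672 TSSs tested. None of the 7 genes passed limma at an adjusted p below 0.05 (adjusted p 0.405 to 0.987), and 1 had an unadjusted p below 0.05, as had 11.8% of all TSSs tested. Over all TSSs tested, 0.157% were called lower and 0.0784% higher. *Capn1* was the only one of the 7 whose genotypes did not overlap in rank score, and 1.62% of all TSSs tested did not overlap in that direction. Peak height was also read as relative fold enrichment, the log2 of fold enrichment over the median TSS peak of the library, for TSSs with a peak in all 10 lists. Control means ran from 0.05 for *Capn2* and 0.09 for *Cdk5*, which is near the median TSS peak, to 0.94 for *Capn1*. On this scale 5 of the 7 genes were lower and 2 higher, with a median difference of −0.02 against −0.06 over 13004 TSSs.

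**Figure D1:**
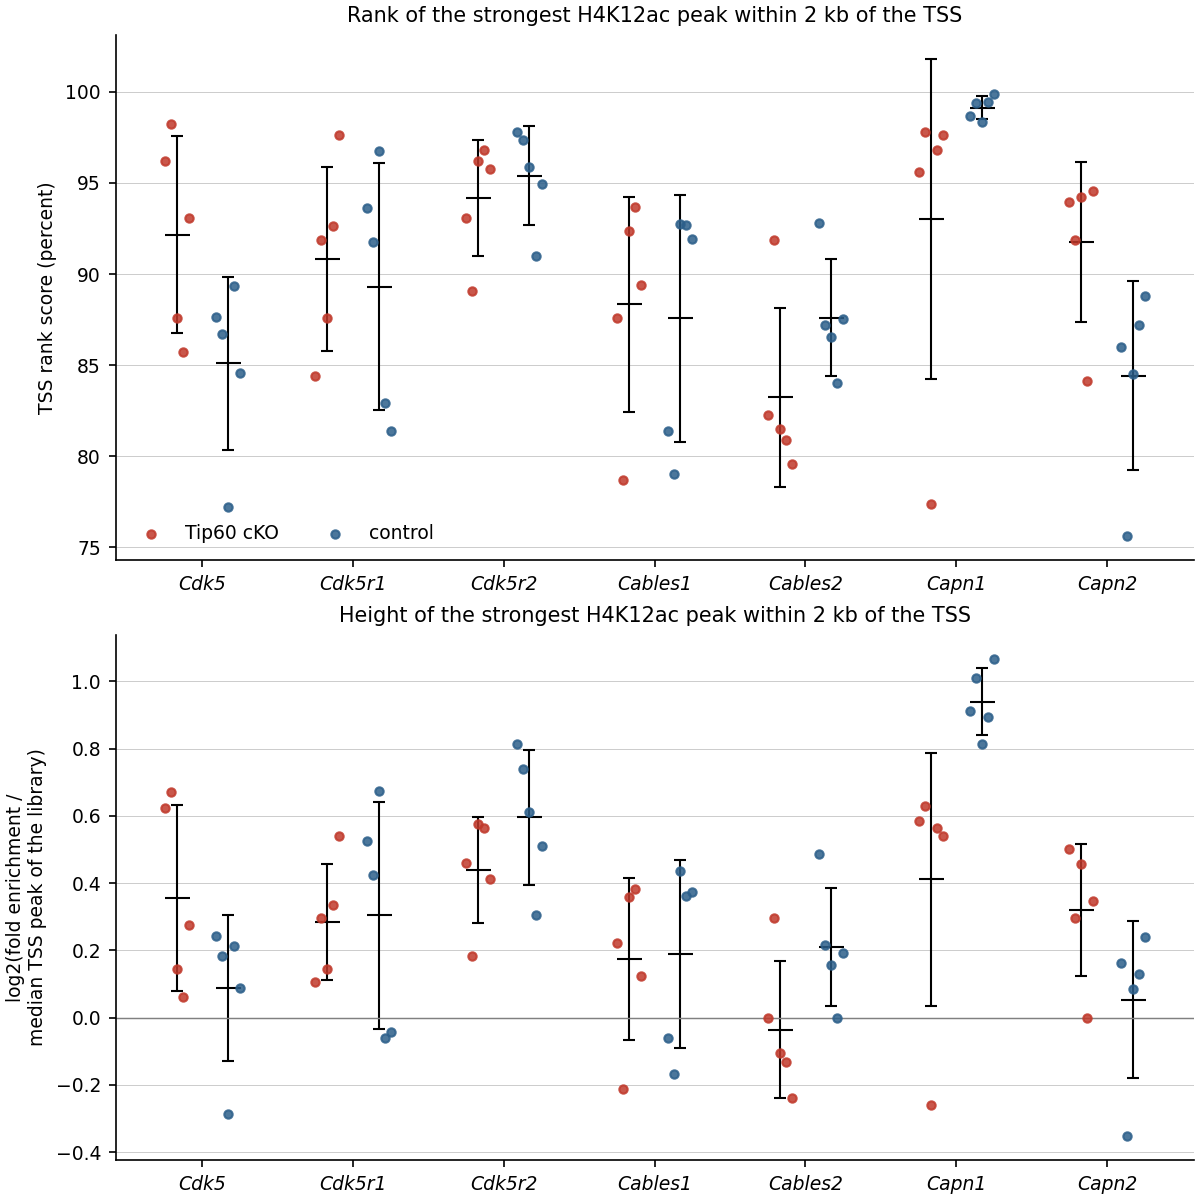
TSS rank score (percent, upper panel) and log2 relative fold enrichment (lower panel) of the strongest H4K12ac peak within 2 kb of the TSS in each of 5 *Tip60* cKO (red) and 5 control mice (blue), with mean and SD in black. All control values of *Capn1* lie above all *Tip60* cKO values in both panels, and those of the other 6 genes overlap.

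*Capn1*, the large subunit of calpain 1, showed the largest difference of the 7 in relative fold enrichment, though not in rank score. The strongest TSS peak had a fold enrichment of 7.40, 7.50, 4.14, 7.61 and 7.20 in *Tip60* cKO mice 1 to 5 and of 9.95, 10.6, 9.76, 9.95 and 10.9 in control mice 1 to 5. Every control was higher than every *Tip60* cKO mouse. In relative fold enrichment the values were 0.58, 0.63, −0.26, 0.56 and 0.54 against 0.91, 1.01, 0.81, 0.89 and 1.07. The mean was lower by 0.53 on the log2 scale (0.41 ± 0.38 against 0.94 ± 0.10, SD, n = 5, standard error of the difference 0.15), which is 0.694 of the control level, and the exact permutation test gave p = 0.00794, the smallest it can give. Of all TSSs, 2.91% had no overlap in this direction. A limma fit on this scale was added after the data had been seen. It gave *Capn1* an adjusted p of 0.0488 as the only gene of the 7, with 1.68% of all TSSs called lower and 1.19% higher.

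*Tip60* cKO mouse 3 stood apart at *Capn1*. It alone among the 10 libraries had a local background at this peak above the genome-wide level, at 1.62 times that level, and fold enrichment is taken over this background. Without this mouse the difference was −0.36, the groups still did not overlap, and limma gave an adjusted p of 0.177. The limma call was lost when any one of the 10 mice other than *Tip60* cKO mouse 1 was left out (adjusted p 0.0469 to 0.177 over the 10). Heights in pileup, the number of overlapping fragments at the summit, were 35, 33, 27, 33 and 23 in *Tip60* cKO and 46, 51, 42, 38 and 54 in control mice, again without overlap but not corrected for depth. The difference in relative fold enrichment was −0.59 on lane 7 and −0.43 on lane 8. In rank score *Capn1* was 95.6, 97.8, 77.4, 96.8 and 97.6 in *Tip60* cKO against 98.7, 99.4, 98.3, 99.4 and 99.9 in control mice (exact permutation p = 0.00794; limma adjusted p = 0.56). The strongest peak spanned the TSS in 9 of 10 lists. In *Tip60* cKO mouse 5 it lay from 372 to 980 bp, and a second peak spanned the TSS. Of the window, 881 bases between −220 and 980 bp from it lay in peaks in all 10 lists.

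**Figure D2:**
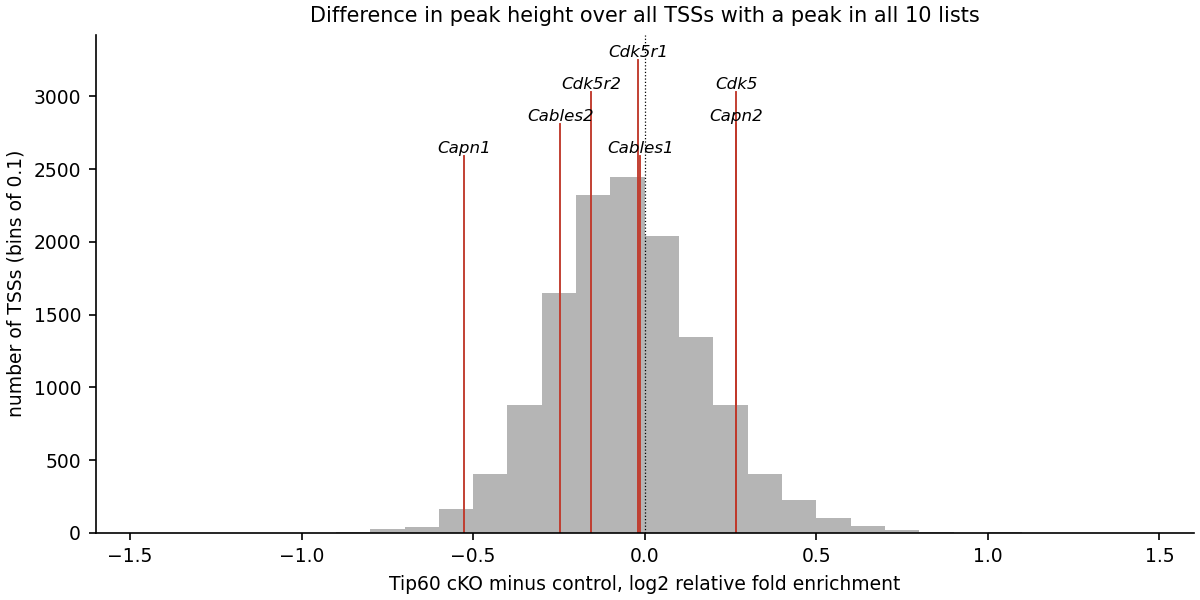
Number of TSSs (bars, bins of 0.1) by the difference in log2 relative fold enrichment, *Tip60* cKO minus control, over the 13004 TSSs with a peak in all 10 lists, with the 7 genes as red lines. *Capn1* lies at −0.53 in the lower tail, at percentile 1.33, and *Cdk5* and *Capn2* both at 0.27.

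*Capn2*, the large subunit of calpain 2, differed in the other direction. Rank scores at its TSS were 94.0, 91.9, 94.2, 84.1 and 94.6 in *Tip60* cKO against 86.0, 75.6, 84.5, 87.2 and 88.8 in control mice. Of the *Tip60* cKO mice 4 lay above all controls, and mouse 4 lay within their range. The mean was higher by 7.34 (91.8 ± 4.39 against 84.4 ± 5.18, SD, n = 5, exact permutation p = 0.0476), but limma gave an adjusted p of 0.405 over all TSSs. In relative fold enrichment the groups overlapped as well, with a difference of 0.27 (exact permutation p = 0.0794, limma adjusted p = 0.338), which was 0.16 without control mouse 2. The difference was 11.3 on lane 7 and 1.35 on lane 8. At this peak the local background exceeded the genome-wide level in control mice 2 and 3, at 1.54 and 1.45 times that level, and in no other library, and with peaks ranked by pileup the difference was 4.83 (exact permutation p = 0.159, n = 5). The part of the background in the difference was not tested further. A single peak covered the start of *Capn2* in each list, and the 587 bases from −6 to 580 bp lay in it in all 10.

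*Cdk5* itself had 2 acetylated regions at its start. One lay upstream, from −1689 to −271 bp from the TSS, and had a peak in all 10 lists. It lies almost wholly within the first part of the *Slc4a2* gene, and its peaks reached back to the *Slc4a2* start in 1 list only. The other lay from −41 to 758 bp, in 5 control and 4 *Tip60* cKO lists. The strongest peak was the upstream one in all 5 *Tip60* cKO mice, and in control mice 1, 4 and 5, so that acetylation of *Cdk5* and of *Slc4a2* cannot be told apart by its height. Rank scores were 96.2, 98.2, 87.6, 85.7 and 93.1 in *Tip60* cKO and 87.7, 86.7, 77.2, 89.3 and 84.6 in control mice. The groups overlapped, and the mean difference of 7.06 was not past either test (92.2 ± 5.40 against 85.1 ± 4.74, SD, n = 5, exact permutation p = 0.0794, limma adjusted p = 0.451). The local background at the strongest peak, which in control mice 2 and 3 was the one on the gene side, was at the genome-wide level in all 5 *Tip60* cKO mice and at 1.04 to 1.67 times that level in the controls, and with peaks ranked by pileup the difference was −1.13.

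The breadth of the acetylated region at *Cdk5* differed the other way. TSS coverage, the share of the 4 kb window under peaks in percent, was 37.8, 32.3, 25.7, 26.6 and 17.4% in *Tip60* cKO and 46.8, 38.9, 45.5, 46.2 and 39.1% in control mice. All *Tip60* cKO values were below all control values, and the mean was lower by 15.3 percentage points (28 ± 7.65 against 43.3 ± 3.94%, SD, n = 5, exact permutation p = 0.00794). No overlap in this direction was seen at 5.23% of all TSSs tested, and limma gave an adjusted p of 0.0584. With single mice left out the adjusted p was 0.0237 without *Tip60* cKO mouse 1 and 0.0618 to 0.118 without any of the other 9. Peaks lay over 17.8, 9.75, 18.1, 14.0 and 0% of the 2 kb on the side of the gene in *Tip60* cKO against 37.4, 29.2, 32.7, 32.9 and 24.6% in control mice. The split of the window into sides was chosen after the data had been seen and was made for the 7 genes only. Among them *Cables2* had the largest difference on the side of the gene, with 26.3 ± 19.3 against 62.5 ± 13.9% (SD, n = 5). On the upstream side of *Cdk5* the means were 44.1 ± 11.5 and 55.2 ± 4.30% (SD, n = 5), with overlap. In the *Cdk5* window 122 bases lay in peaks of all controls and of no *Tip60* cKO mouse, and among the 7 genes only *Cdk5* had such bases. How many of all TSS windows hold such bases was not determined, and control lists covered more of the genome on average. The 122 bases are therefore not read as a loss particular to *Cdk5*.

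**Figure D3:**
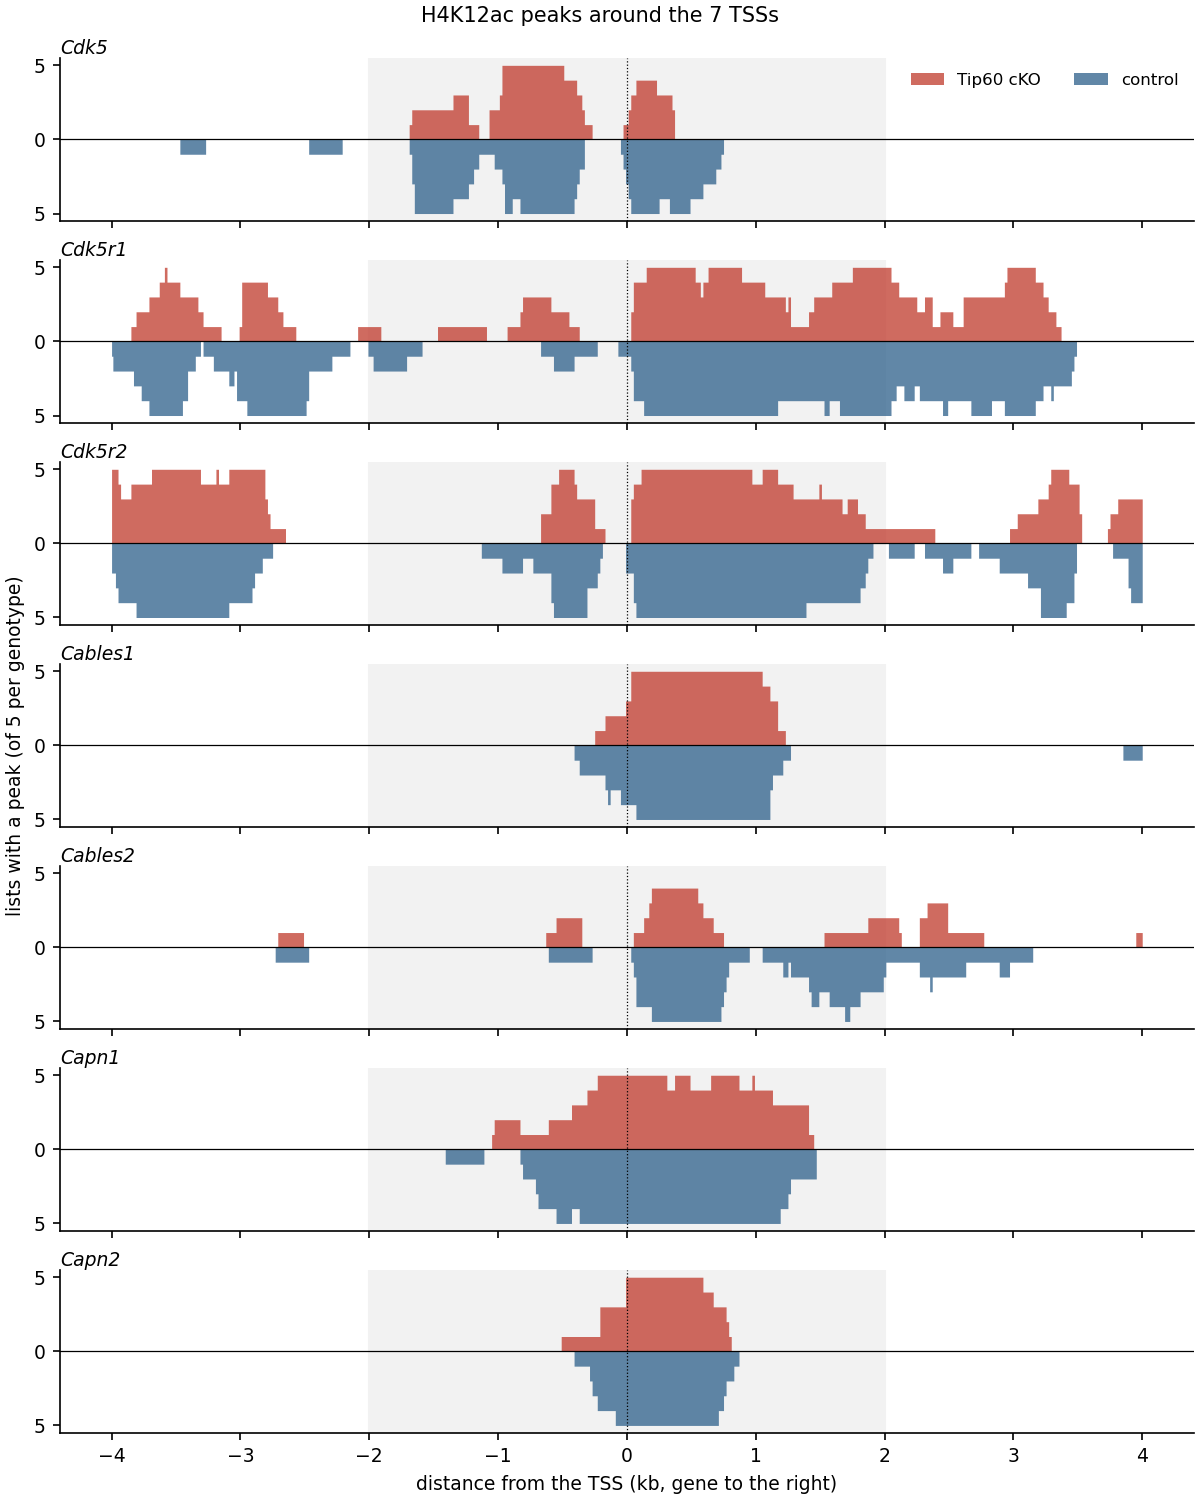
Number of lists (of 5 per genotype) with a peak at each distance from the TSS, *Tip60* cKO upwards in red and control downwards in blue, with the 4 kb window shaded. At *Cdk5* the control peaks reach farther into the gene, at *Cables2* no base of the window lies in peaks of all 10 lists, and *Capn1* has one broad region across the TSS.

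Lower coverage was shared by most TSSs. All 7 genes had a lower mean TSS coverage in *Tip60* cKO, with a median difference of −7.93 percentage points, but so had 81.1% of the 21672 TSSs tested, with a median of −4.01. None of the 7 was called by limma (adjusted p 0.0584 to 0.617), 3 had an unadjusted p below 0.05, as had 23.2% of all TSSs tested, and 1.53% of all TSSs were called lower and 0.0369% higher. Coverage was therefore also scaled to the mean of all tested TSSs of the library, a step added after the data had been seen. This scaling also takes out any loss of the mark that all TSSs share. On the scaled values 2 of the 7 genes, *Cdk5* and *Cables2*, were lower and 5 higher. None was called (adjusted p 0.193 to 0.758, 1 unadjusted p below 0.05), with 0.277% of all TSSs called lower and 0.226% higher. *Cdk5* was then lower by 7.74 percentage points, and its groups overlapped (exact permutation p = 0.0714, n = 5).

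**Figure D4:**
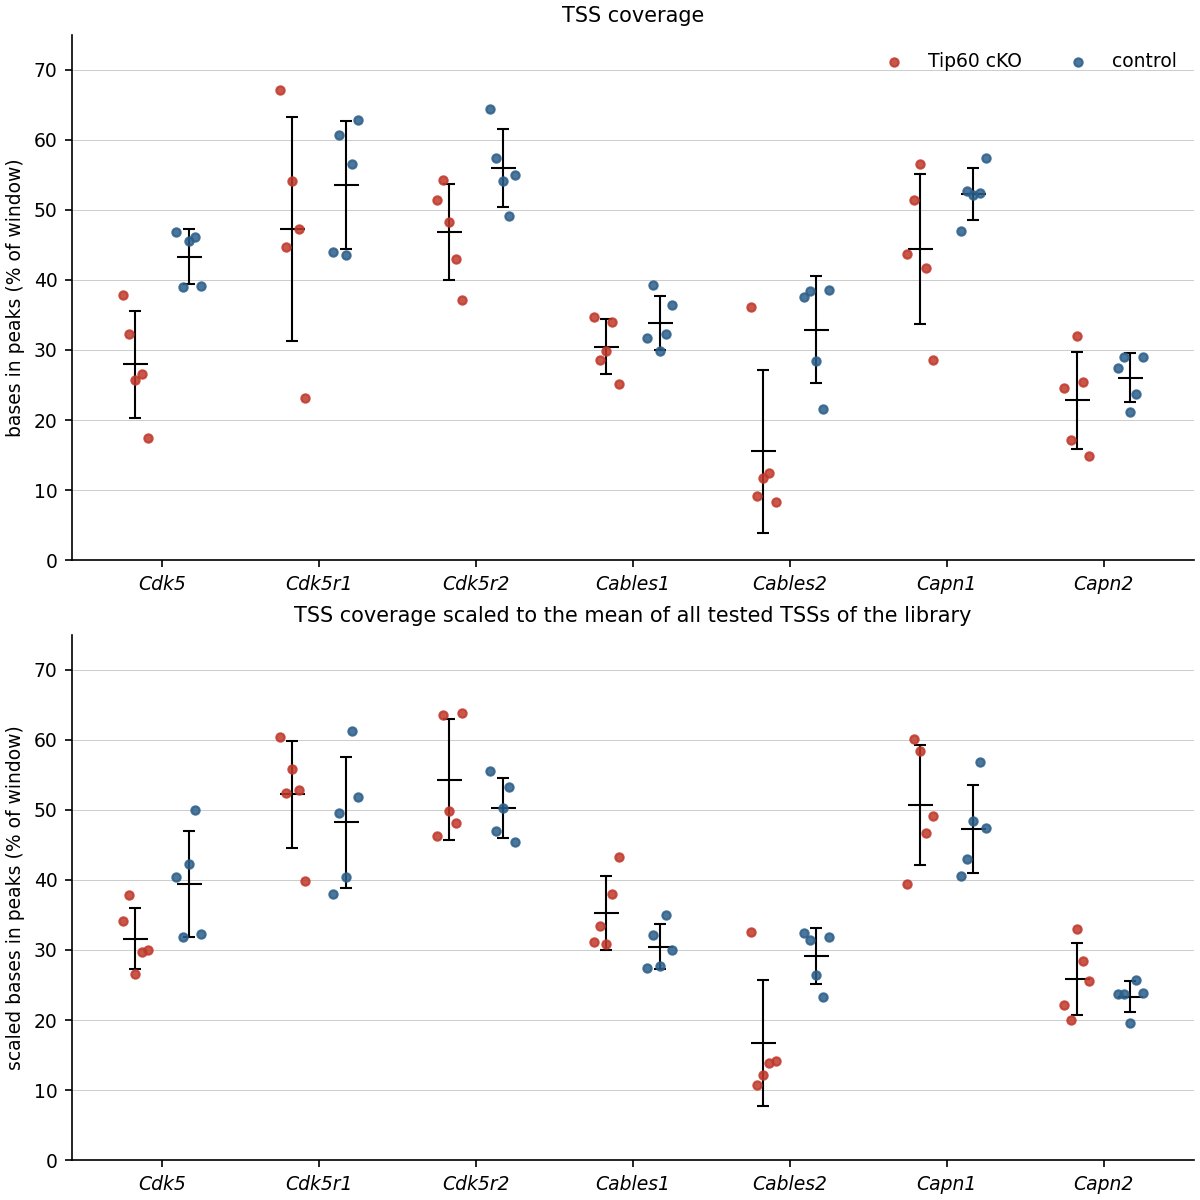
TSS coverage in percent of the 4 kb window (upper panel) and the same scaled to the mean of all tested TSSs of each library (lower panel) in 5 *Tip60* cKO (red) and 5 control mice (blue), with mean and SD in black. *Cdk5* separates by genotype only in the upper panel, and 4 of 5 *Tip60* cKO values of *Cables2* lie below all controls in both panels.

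The activator genes showed little difference in height relative to the other TSSs of the library. *Cdk5r1*, which encodes p35, had a rank score of 90.8 ± 5.06 in *Tip60* cKO and 89.3 ± 6.78 in controls (SD, n = 5, exact permutation p = 0.683). Values ran from 84.4 to 97.6 and from 81.4 to 96.8. The sign of the difference changed between lanes, with −6.12 on lane 7 and 13.0 on lane 8. Peaks covered most of the 2 kb after the TSS of *Cdk5r1*, 78.2 ± 18.0% in *Tip60* cKO and 93.4 ± 5.70% in controls (SD, n = 5), and 899 bases lay in peaks in all 10 lists. The lowest value, 46.3%, was that of *Tip60* cKO mouse 5, and without this mouse the difference in TSS coverage went from −6.23 to −0.209 percentage points.

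*Cdk5r2*, which encodes p39, is short and acetylated over most of its length. Its rank score averaged 94.2 ± 3.19 in *Tip60* cKO and 95.4 ± 2.71 in controls (SD, n = 5, exact permutation p = 0.524), with −4.22 on lane 7 and 3.30 on lane 8. TSS coverage was 51.4, 54.3, 48.3, 43.0 and 37.1% in *Tip60* cKO and 64.4, 57.4, 54.1, 49.2 and 55.0% in control mice. The groups overlapped, with a difference of −9.16 percentage points (exact permutation p = 0.0476, limma adjusted p = 0.175) that turned to 4.03 after scaling. Its 3 regions were present in all 10 lists. The third (chromosome 1, 74857673 to 74858469) reaches the 3′ end of the gene in 1 control list only, and in the other 9 lists its peak lies downstream of the gene. There the region score averaged 71.3 ± 7.29 in *Tip60* cKO and 82.7 ± 2.99 in control mice without overlap (SD, n = 5, exact permutation p = 0.00794, limma adjusted p = 0.418). Among all regions 1.34% did not overlap in this direction.

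*Cables1*, the first of the adaptor genes, had a rank score of 88.3 ± 5.91 in *Tip60* cKO and 87.6 ± 6.76 in controls (SD, n = 5, exact permutation p = 0.889) and a TSS coverage of 30.4 ± 3.92 and 33.9 ± 3.85%. In all 10 lists its peak covered the 967 bases from 74 to 1040 bp after the TSS.

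*Cables2* had the lowest mean rank score of the 7 in *Tip60* cKO mice. TSS coverage was 36.1, 9.22, 11.7, 12.4 and 8.25% in *Tip60* cKO and 37.5, 38.4, 28.4, 21.5 and 38.6% in control mice. *Tip60* cKO mouse 1 lay among the controls, and the other 4 lay below all of them. The mean was lower by 17.4 percentage points (15.5 ± 11.6 against 32.9 ± 7.63%, SD, n = 5, exact permutation p = 0.0238), with a limma adjusted p of 0.105. After scaling the difference was −12.4 (exact permutation p = 0.0476, limma adjusted p = 0.193). The unscaled difference was −22.5 without *Tip60* cKO mouse 1, with a limma adjusted p of 0.018 (0.0606 to 0.215 without any of the other 9), and −8.57 with all transcript starts of the gene used (0.387). The region from 29 to 955 bp after the TSS had a peak in all 5 control and 4 *Tip60* cKO lists. It had none in *Tip60* cKO mouse 5, whose list was the shortest, and the strongest peak of the window lay upstream, with its summit at −436 bp. The rank score was 83.2 ± 4.94 against 87.6 ± 3.20 (SD, n = 5, exact permutation p = 0.143), and a second region further into the window, from 1046 to 3157 bp after the TSS, was present in 4 *Tip60* cKO and 5 control lists.

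Peaks inside the genes, from 2 kb after the TSS to the gene end, could be compared for *Cdk5r1*, *Cables1*, *Cables2*, *Capn1* and *Capn2*. *Cdk5r2* ends within 4 kb of its start, and *Cdk5* had a body peak in 1 list only. None of the 5 was called for body coverage (limma adjusted p 0.123 to 0.923, 1 unadjusted p below 0.05) or for the rank score of the strongest body peak (0.651 to 0.999, none below 0.05 unadjusted). Over all 12823 bodies tested, 0.351% were called lower in coverage, and 0.164% lower and 0.0234% higher in rank score. Body coverage was lower for 4 of the 5 and higher for *Capn1*, against a median of −0.528 percentage points and 74.2% lower over all bodies. The difference of *Capn1* was 0.734 percentage points, and 0.0073 without *Tip60* cKO mouse 1. That of *Cables2* was −1.32, and 1.28 without *Tip60* cKO mouse 5.

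The body of *Capn2* had the smallest p of the 5 in coverage. Peaks covered 3.09, 1.54, 1.83, 1.02 and 0% of it in *Tip60* cKO and 3.08, 4.07, 3.75, 3.35 and 3.72% in control mice. *Tip60* cKO mouse 1 exceeded the lowest control by little, and the other 4 lay below all controls. The mean was lower by 2.1 percentage points (1.5 ± 1.13 against 3.59 ± 0.382%, SD, n = 5, exact permutation p = 0.0159, limma adjusted p = 0.123). *Capn2* had 7 body regions. Of these 4, all intronic, had a peak in 2 or 3 control lists and in no *Tip60* cKO list. This shows only that they did not pass the peak threshold there. *Cables1* had 1 such region. The share of such regions among all regions was not determined, so the count is not read as particular to *Capn2*. The most frequent body region, over an exon from 26589 to 27620 bp after the TSS (chromosome 1, 182489988 to 182491019), was present in 5 control and 4 *Tip60* cKO lists.

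Over the 7 genes 37 regions were found in at least 2 lists, and 9 of them in all 10. None was called (smallest limma adjusted p 0.351), 2 regions, both introns of *Capn2*, had an unadjusted p below 0.05, and 0.476% of all 144781 regions were called lower and 0.0863% higher. More control than *Tip60* cKO lists held a peak in 15 regions (40.5%), and the reverse in 5 (13.5%), against 42.0 and 21.5% of all regions. The regions of *Cables1* were sparse: it had 7 body regions, of which the one from 43913 to 44873 bp after the TSS was present in 5 control and 4 *Tip60* cKO lists. Body coverage of *Cables1* was 1.03 ± 0.430 and 1.87 ± 0.905% and that of *Cables2* 11.3 ± 7.16 and 12.6 ± 5.87% in *Tip60* cKO and control mice (SD, n = 5). At *Capn1* a region over the last exon (chromosome 19, 5988674 to 5989289) was present in 4 *Tip60* cKO and 2 control lists. At *Cdk5r1* the body is short and densely covered, with 40.9 ± 18.2 and 57.6 ± 8.81% (SD, n = 5, exact permutation p = 0.119). The difference was −16.7 percentage points. With single mice left out it ran from −21.7 (without *Tip60* cKO mouse 3) to −10.7 (without *Tip60* cKO mouse 5).

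**Figure D5:**
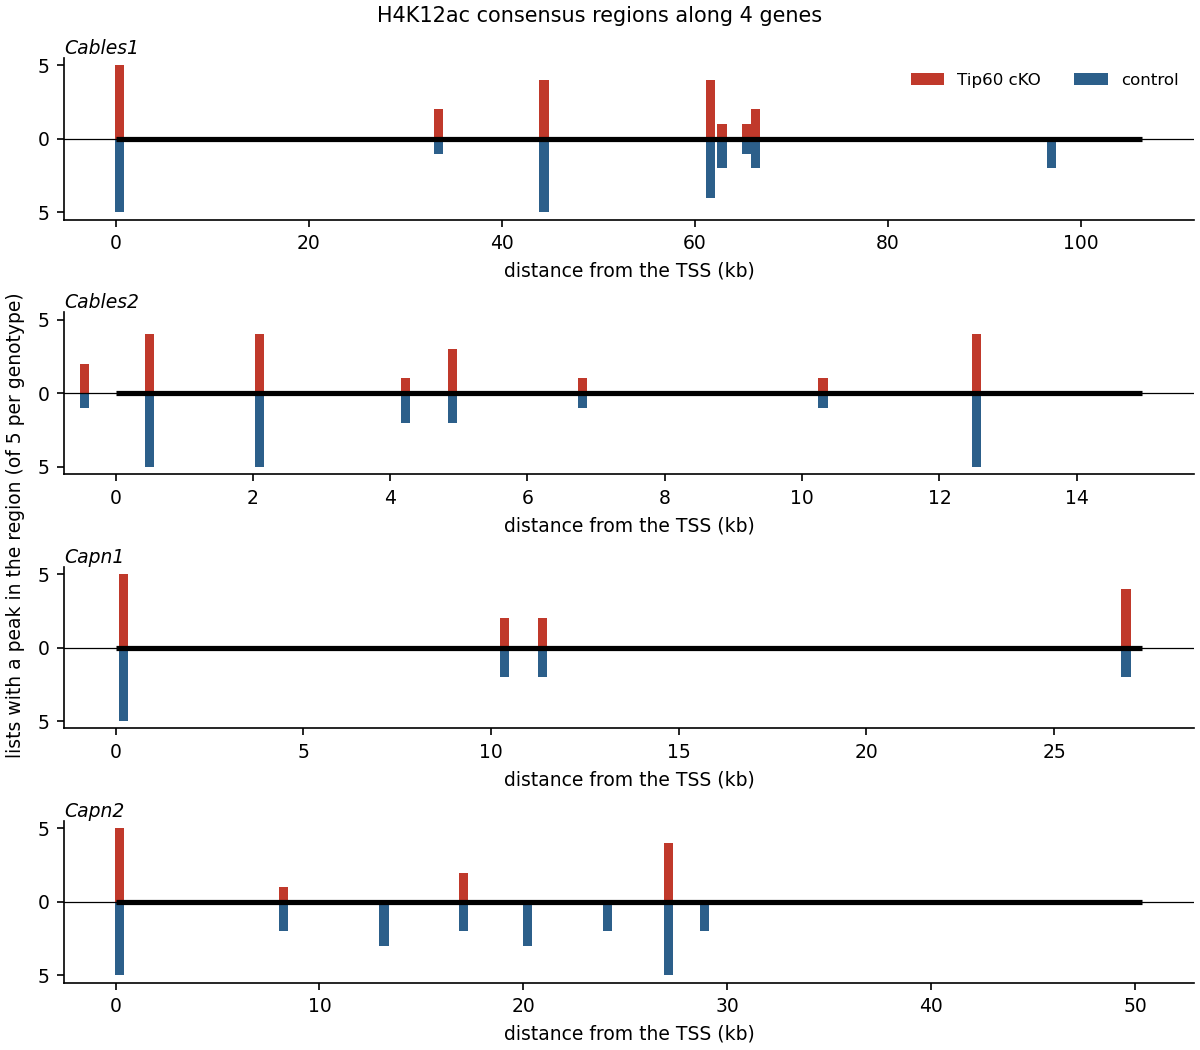
Number of lists (of 5 per genotype) with a peak in each consensus region along 4 of the genes, *Tip60* cKO upwards in red and control downwards in blue, against the distance from the TSS in kb, with the gene as a black bar. Along *Capn2*, 4 regions have control lists only, and in the other 3 genes most regions have lists of both genotypes. The share of regions with control lists only was not determined over all regions.

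To see which TSSs varied most like each gene, relative fold enrichment was correlated over the 10 libraries with that of all 13004 TSSs with a peak in all lists, as a description. The highest Pearson r was 0.968 for *Capn1* (with *Gtse1*), 0.929 for *Capn2* (with *Smc2* and its antisense gene *Smc2os*, which share a start region), 0.975 for *Cables2* (with *Fbxl20*) and 0.959 for *Cdk5r2* (with *Hsph1*). It was 0.923 for *Cdk5* (with *Sept8*), 0.888 for *Cdk5r1* (with *Mterf1a*) and 0.879 for *Cables1* (with *Dok5*). These are the highest of 13004 values over only 10 libraries, and high values can arise by chance in such a search. The level reached by chance was not determined, so the named genes are not read as partners. None of the 7 genes was among the 2 TSSs most like another of them, which says little with so many candidates. The libraries of a genotype also share their input.

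Genes around the pathway were read in the same way, from lists chosen with earlier results of these data known. In each of the 5 lists none was called in rank score. Over all TSSs tested, 55.6% were lower in rank score and 81.1% in TSS coverage. Of 14 further genes of the calpain system 10 were tested, 7 lower and 3 higher in rank score, with a median of −5.62. *Capns1*, the small subunit that pairs with both large subunits, had a TSS peak in 5 control lists and 1 *Tip60* cKO list. Its TSS coverage was 0.975 ± 2.18% in *Tip60* cKO and 16.2 ± 6.25% in controls (SD, n = 5). It was the only one of the 10 that fell by limma (adjusted p 0.0347), where 1.53% of all TSSs tested were called lower. After scaling the adjusted p was 0.0743, and with the replicate number as a block the unscaled call was lost. *Capn7* was highest in difference of rank score with 3.06, and *Cast*, the calpain inhibitor calpastatin, had a peak in 2 lists of each genotype.

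Of 10 modulators of CDK5, 9 were lower and 1 higher in rank score, with a median of −5.95, from −13.1 for *Ccne1*, a cyclin that can bind CDK5, to 2.89 for *Cdk5rap2*. *Ccne1* had a peak in 4 *Tip60* cKO and 5 control lists, and *Cdk5rap2* in 4 lists of each genotype, so that scores of 0 for lists without a peak enter both values. TSS coverage of *Gstp1*, a glutathione transferase with a closely similar neighbour gene, fell from 40.8 ± 4.60 to 23.3 ± 6.01% (SD, n = 5). Limma gave an adjusted p of 0.0293, and 0.0773 after scaling. It was the only call of the 10 in coverage, where 1.53% of all TSSs tested were called lower. This call was lost with the replicate number as a block. A further list of 6 genes held the related kinase genes *Cdk14* to *Cdk18* and the cyclin gene *Ccny*. Of these 4 were tested and 2 were lower. Differences ran from −19.3 for *Cdk16*, which had a peak in 3 *Tip60* cKO and 4 control lists, to 2.54 for *Cdk18*. Of 25 substrates of CDK5, 22 were tested, 15 lower and 7 higher, with a median of −0.923. *Ngef*, an exchange factor at dendritic spines, had the largest difference with −44.5 (limma adjusted p = 0.383), with a peak in 2 *Tip60* cKO and 5 control lists and a score of 0 in the others, and *Amph*, an endocytic protein, differed by 9.02. Of 9 calpain substrates, *Cdk5r1* among them, 3 were lower and 6 higher, with a median of 1.52, from −4.31 for *Map2* to 3.69 for *Slc8a3*.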

How the data were processed

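H4K12ac was measured by ChIP-Seq in 5 *Tip60* cKO and 5 control mice. The authors mapped reads to mm10 and removed duplicates with SAMtools. Peak calling (MACS 2.1.0.20140616, q below 0.1) was done for each mouse against 1 pooled input per genotype. The deposited lists give pileup (a coverage signal), fold enrichment (the ratio of pileup to local background, each plus 1) and p-value and q-value as −log10. The authors' test used reads and was not repeated. The local background was recovered from pileup and fold enrichment and divided by the lowest value of the library. No column of another sample was used.

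TSSs were the 5′ ends of GENCODE M21 genes, and windows extended 2 kb to each side. Bodies of genes over 4 kb began 2 kb downstream of the TSS and ended with the gene. Regions were merged peaks found in at least 2 lists (144781 of 257454), scored in each library by the percent rank of their strongest peak, with 0 where there was none, as for TSSs and bodies. Rank score, coverage and relative fold enrichment were compared with limma 3.58.1 in R 4.3.3 over all features with a peak in at least 2 lists (for relative fold enrichment in all 10), with Benjamini-Hochberg adjustment over all of them and a threshold of 0.05. Single genes were also compared by an exact permutation test, two-sided, with all 252 assignments of the 10 mice (smallest p 0.00794), in Python 3.11.15 with numpy 2.4.6, pandas 2.3.3 and scipy 1.17.1. Exact p-values are not adjusted for the number of genes and measures. The limma step was tested on simulated data. Figures were drawn with matplotlib 3.10.9.

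The files hold no counts, so counting error is not given, and precision is the spread between 5 mice. Absence of a peak means that a place did not reach the threshold, which depends on depth. Replicate numbers are not described as pairs. Deviations of same-numbered mice were only weakly correlated (−0.0375 to 0.0552), though some *Tip60* cKO mice were most like the control of their number. The lane was read from the file names. All 7 genes are named. In each pathway list, called genes and those with the largest difference in rank score in each direction are named, and *Cast* was added after its values were seen. For each gene the TSS most alike was taken among those over 10 kb away. The members, lists and rules were chosen with earlier results of these data known. Limma on relative fold enrichment, the scaled coverage and the split of the window into sides were added after seeing the data. The other alternatives were a stricter q (below 0.01), lists cut to an equal length of 64245 peaks, ranking by pileup, windows of 1 kb, all transcripts, bodies from the TSS, features in at least 5 lists, a mean-dependent robust prior, the lane as a term or separately, the replicate number as a block, and each library left out. Labels and paper also differ in the library kit, which entered no comparison.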

Additional observations from a re-analysis of the deposited data

Results flagged for a closer look

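A single mouse stood apart from the other 4 of its genotype in 9 of the 62 groups of values examined, by the gap to its nearest neighbour relative to the range. By chance about 1 in 20 such groups would be marked. At the TSS of *Capn1*, *Tip60* cKO mouse 3 had a rank score of 77.4 (95.6 to 97.8 in the other 4) and a log2 relative fold enrichment of −0.26 (0.54 to 0.63), with the raised local background given above.

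At *Capn2*, *Tip60* cKO mouse 4 had a rank score of 84.1 (91.9 to 94.6), and control mouse 2 a log2 relative fold enrichment of −0.35 (0.09 to 0.24). At *Cables2*, *Tip60* cKO mouse 2 had a rank score of 91.9 (79.6 to 82.3), while *Tip60* cKO mouse 1 had a TSS coverage of 36.1% (8.25 to 12.4%). Mice without any body peak had a body rank score of 0: *Tip60* cKO mouse 5 (67.6 to 80.2 in the others) and control mouse 5 (64.3 to 74.1) at *Capn1*, and *Tip60* cKO mouse 5 (65.1 to 85.3) at *Capn2*.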

How the results depend on the processing

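Peaks above a threshold and not reads were compared, so coverage and presence of peaks move with depth, and fold enrichment with the pooled input of each genotype. Over 16 alternatives, which leave aside the separate lanes, the difference of *Capn1* in relative fold enrichment stayed negative (−0.58 to −0.36), with limma adjusted p from 0.0319 to 0.177. It passed the threshold in 5 of them. With a replicate block limma called no TSS for coverage (4507 at an unadjusted p below 0.05) and no body (1556), 254 regions in place of 814, and gave adjusted p of 0.0356 for *Capn1* in relative fold enrichment, 0.1 for *Cdk5* in TSS coverage and 0.336 for *Capn2* in body coverage. Correlations of same-numbered mice were 0.0552, 0.0267, −0.0277, 0.0514 and −0.0375, and 3 of 5 *Tip60* cKO mice were most like the control of their number. The cause of the changes below was not tested.

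Ranked by pileup, the *Cdk5* rank score differed by −1.13 and the *Cdk5r1* body rank score by −7.44. After scaling, TSS coverage differed by 4.01 for *Cdk5r1*, 4.03 for *Cdk5r2*, 4.88 for *Cables1*, 3.46 for *Capn1* and 2.52 for *Capn2*, and 109 TSSs were called (60 lower, 49 higher) in place of 339 (331 and 8). With the same number of peaks per library, TSS coverage differed by −17.6 for *Cdk5* (limma adjusted p 0.0152) and −12.7 for *Cables2* (0.048), and body coverage by −1.74 for *Capn2* (0.0302) and 0.818 for *Cables2*. Relative fold enrichment then differed by 0.013 for *Cdk5r1*, 0.019 for *Cables1* and −0.49 for *Capn1* (0.0536), and 734 TSSs and 112 bodies were called for coverage. In windows of 1 kb, *Capn1* differed by −0.52 in relative fold enrichment (0.0536) and *Cdk5r1* by 1.59 in TSS coverage. With the lane as a term, *Cdk5* coverage (−15.3) reached 0.0443, and 653 TSSs were called for coverage. The robust prior gave 86 TSSs in rank score, 9 bodies in coverage and 8 in rank score. With bodies from the TSS, 89 were called for coverage and 39 for rank score, and body rank scores differed by −10.5 for *Cables2*, −11.3 for *Capn1* and 12.2 for *Capn2*. At q below 0.01 that of *Cables2* differed by −11.2.

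On lane 7 alone the rank score differed by −6.12 for *Cdk5r1* and −4.22 for *Cdk5r2*, and relative fold enrichment by −0.36 for *Cdk5r1*. On lane 8 the rank score differed by 13.0 for *Cdk5r1*, 3.30 for *Cdk5r2* and 1.35 for *Capn2*, and TSS coverage by −24.4 for *Cdk5r1* (5.90 on lane 7) and −19.8 for *Capn1* (−0.025 on lane 7). On that lane relative fold enrichment differed by 0.018 for *Cdk5*, 0.49 for *Cdk5r1*, 0.081 for *Cdk5r2* and −0.013 for *Capn2*, and body coverage by −3.02 for *Capn2*.

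With each mouse left out in turn, rank score differences ran from −0.456 to 3.38 for *Cdk5r1*, −2.31 to 0.0627 for *Cdk5r2* and −1.36 to 3.19 for *Cables1*, TSS coverage from −17.8 to −12.7 for *Cdk5* and −22.5 to −15.5 for *Cables2*, and relative fold enrichment from −0.11 to 0.073 for *Cdk5r1*, −0.10 to 0.084 for *Cables1* −0.58 to −0.36 for *Capn1* and 0.16 to 0.35 for *Capn2*. Body coverage ran from −3.33 to 1.28 for *Cables2*, and body rank score from −1.01 to 5.65 for *Cdk5r1*, −0.304 to 5.79 for *Cables1* and −9.77 to 18.5 for *Capn1*. Calls ran from 56 to 97 TSSs in rank score, 38 (without control mouse 5) to 1388 (without *Tip60* cKO mouse 1) in coverage and 207 to 370 in relative fold enrichment, and from 0 to 252 bodies in coverage and 31 to 53 in rank score. No body was called for coverage by limma without *Tip60* cKO mouse 5 (1538 at an unadjusted p below 0.05) or control mouse 5 (1534), and 252 were called without control mouse 4.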
